A study of Rattus norvegicus with 36 samples.

Results

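Rpl3 and Rpl3l encode alternative versions of one protein of the large ribosomal subunit, and both were measured in developing eye and leg muscle of the rat. Of 8799 probe sets on the array, 4 carried Rpl3 or Rpl3l as their only gene symbol, 2 for each gene, and all 4 exceeded the filter on low values. The pair was selected from these data for its pattern over muscle and age, an increase of the muscle paralog beside a decrease of the general one, so the levels of both genes are given below as a description, without a test. Rat RG-U34A arrays from Affymetrix were used to profile total RNA of extraocular muscle (EOM, the muscles that move the eye) and of leg muscle, which the labels give as gastrocnemius with soleus. Ages were postnatal day 0, day 7, day 14, day 21, day 28 and day 45, and 3 arrays per muscle and age make 12 groups and 36 arrays. The labels name no treatment, genotype, strain or sex. Separate animals or pools are not named for the replicates, so every standard error (SE), standard deviation (SD) and p-value measures only the spread between these samples.

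Rpl3 is present in the large subunit of ribosomes in nearly all cells, where it reaches towards the peptidyl transferase centre, the site at which amino acids are joined. Rpl3l is a close paralog whose expression is largely restricted to skeletal muscle and heart, and ribosomes of mature striated muscle can carry it in place of Rpl3. Muscle maturation after birth is marked by many such exchanges, in which an embryonic or general isoform of a protein gives way to an adult muscle isoform.

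The upstream sequences of the 2 genes are shown because their transcripts moved in different ways over the same ages. Both come from the RefSeq annotation of assembly GRCr8, are written 5′ to 3′ on the strand of the gene, and end at the base before the annotated start. The Rpl3l sequence is chr10:14258196-14258445 on the plus strand, 250 bases. The Rpl3 sequence is chr7:113508116-113508240 on the minus strand, 125 bases, and stops where another annotated transcript begins. Capitals mark matches on either strand to CANNTG, the E-box bound by myogenic basic helix-loop-helix factors, and to CATTCC, the M-CAT element bound by TEAD factors.
Rpl3l: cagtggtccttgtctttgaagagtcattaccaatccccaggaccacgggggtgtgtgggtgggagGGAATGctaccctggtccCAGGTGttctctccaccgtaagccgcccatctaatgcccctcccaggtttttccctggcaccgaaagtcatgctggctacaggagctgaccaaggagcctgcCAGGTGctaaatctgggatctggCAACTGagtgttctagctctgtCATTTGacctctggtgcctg
Rpl3: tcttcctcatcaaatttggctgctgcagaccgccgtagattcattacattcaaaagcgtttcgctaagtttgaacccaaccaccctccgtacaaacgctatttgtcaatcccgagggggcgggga
The Rpl3l sequence held 4 E-box matches, of which 2 read CAGGTG, 1 CAACTG and 1 CATTTG. Over the same window of 33469 annotated promoters, 65.5% held any E-box match and 3.2% held at least as many as Rpl3l. It also held 1 M-CAT match, read on the opposite strand, as did 12.1% of promoters. The Rpl3 sequence held no match to either motif, in the printed bases or in the 250-base window that continues downstream of them. The TATA box TATAAA, found in 12.9% of promoters, had 0 matches for Rpl3l and 1 for Rpl3. That match read on the opposite strand and lay downstream of the printed bases. Both promoters held 1 match to the GC box GGGCGG, found in 30.5% of promoters, and no match in the printed Rpl3l bases overlapped another. Their base composition differed in CpG content: 21 CpG dinucleotides lay in the 250 bases of Rpl3 and 4 in those of Rpl3l, against a median of 5 over all promoters. The GC content was 53.6% for Rpl3 and 56.4% for Rpl3l. These matches describe the letters of the windows and say nothing about factor binding.

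Rpl3l intensity was low at birth and high from day 21 onwards in both muscles, on each of its probe sets, and the increase came later in EOM than in leg. Intensity here is the deposited value of a probe set on a linear scale, and differences are given on the log2 scale after low values were raised to a floor of 100.9. The probe set rc_AA891037_g_at read 313, 628.9 and 432.2 in leg at day 0 and 3237.4, 2299.1 and 1985.3 at day 7. At day 14 the leg arrays read 14410.8, 7047.6 and 10141, and at day 21 they read 14509.4, 22332.6 and 17856.8. The leg increase was therefore spread over the first weeks, with no overlap between day 0, day 7 and day 14. The leg arrays read 15467.2, 25988.3 and 27176.6 at day 28 and 15879.6, 14120.2 and 13601 at day 45. In EOM the same probe set read 450.6, 120.5 and 345.1 at day 0 and 693.9, 671.2 and 563.5 at day 7. The EOM arrays of day 7 all stayed below the lowest leg array of that age. EOM then read 5680, 5843.6 and 4748.4 at day 14 and 15637.5, 14975.8 and 10466.3 at day 21. The later EOM arrays read 8289.4, 10318.2 and 17769.5 at day 28 and 11548.8, 10210.5 and 7098.4 at day 45. From day 21 on, the EOM arrays of successive ages overlapped.

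The other Rpl3l probe set, rc_AA891037_at, carries the same expressed sequence tag in its name and showed the same course with a smaller range. In leg it read 1556.9, 1143.4 and 1229 at day 0, 2858.8, 2707.6 and 2964.8 at day 7 and 5802.5, 5158.2 and 8764.1 at day 14. It read 12468.6, 13616.6 and 11609.2 at day 21, 8706.5, 10074.5 and 11941 at day 28 and 9067.6, 9180.6 and 6066.5 at day 45. Leg was highest at day 21 on this probe set and at day 28 on the other, with overlapping arrays between these ages in both cases. In EOM it read 1335.3, 1253.2 and 1109.4 at day 0, 1568.2, 1418.3 and 1188.9 at day 7 and 5764.4, 4899.2 and 4081 at day 14. It read 7211.1, 5945.3 and 7964.1 at day 21, 6774.6, 5525.4 and 15408.6 at day 28 and 4393.4, 3957.4 and 7401.5 at day 45. The third array of EOM at day 28 was the highest of its group on both Rpl3l probe sets.

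From day 0 to day 45, Rpl3l was higher on all arrays of the later age in both muscles and on both of its probe sets. Over all 6672 probe sets tested, such a complete separation upwards occurred in 22.3% for leg and 16.8% for EOM, and nothing is read from the members' count since these values chose them. The log2 difference of rc_AA891037_g_at was 5.04 ± 0.35 (SE, n = 3 arrays per group) in leg, a 33-fold increase, and 5.15 ± 0.35 in EOM, a 35.5-fold increase. For rc_AA891037_at it was 2.62 ± 0.27 in leg and 2.04 ± 0.27 in EOM, or 6.13-fold and 4.11-fold. The probe sets thus gave the same direction but very different sizes. The change in EOM minus the change in leg was 0.11 ± 0.50 on rc_AA891037_g_at and -0.58 ± 0.38 on rc_AA891037_at, so its sign was not shared. In these bulk samples, fewer cells of a type and less RNA per cell cannot be told apart.

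The steps between successive ages spread the increase of Rpl3l over several steps in leg, while EOM had its largest step in the second week. In leg, rc_AA891037_g_at had steps of 2.48 ± 0.35 from day 0 to day 7, 2.04 ± 0.35 to day 14 and 0.83 ± 0.35 to day 21. In EOM the corresponding steps were 1.27, 3.08 and 1.32, each with an SE of 0.35, so the largest step lay between days 7 and 14. For rc_AA891037_at the leg steps were 1.13, 1.17 and 0.97 and the EOM steps 0.17, 1.82 and 0.52, each with an SE of 0.27. On both probe sets the largest EOM step was that from day 7 to day 14. The largest leg step was from day 0 to day 7 on rc_AA891037_g_at and from day 7 to day 14 on rc_AA891037_at. In each case the other of these steps was close to it in size. After day 21 no step of either probe set separated the arrays of neighbouring ages in either muscle. The steps from day 28 to day 45 were all negative, between -0.72 and -0.29.

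**Figure D1:**
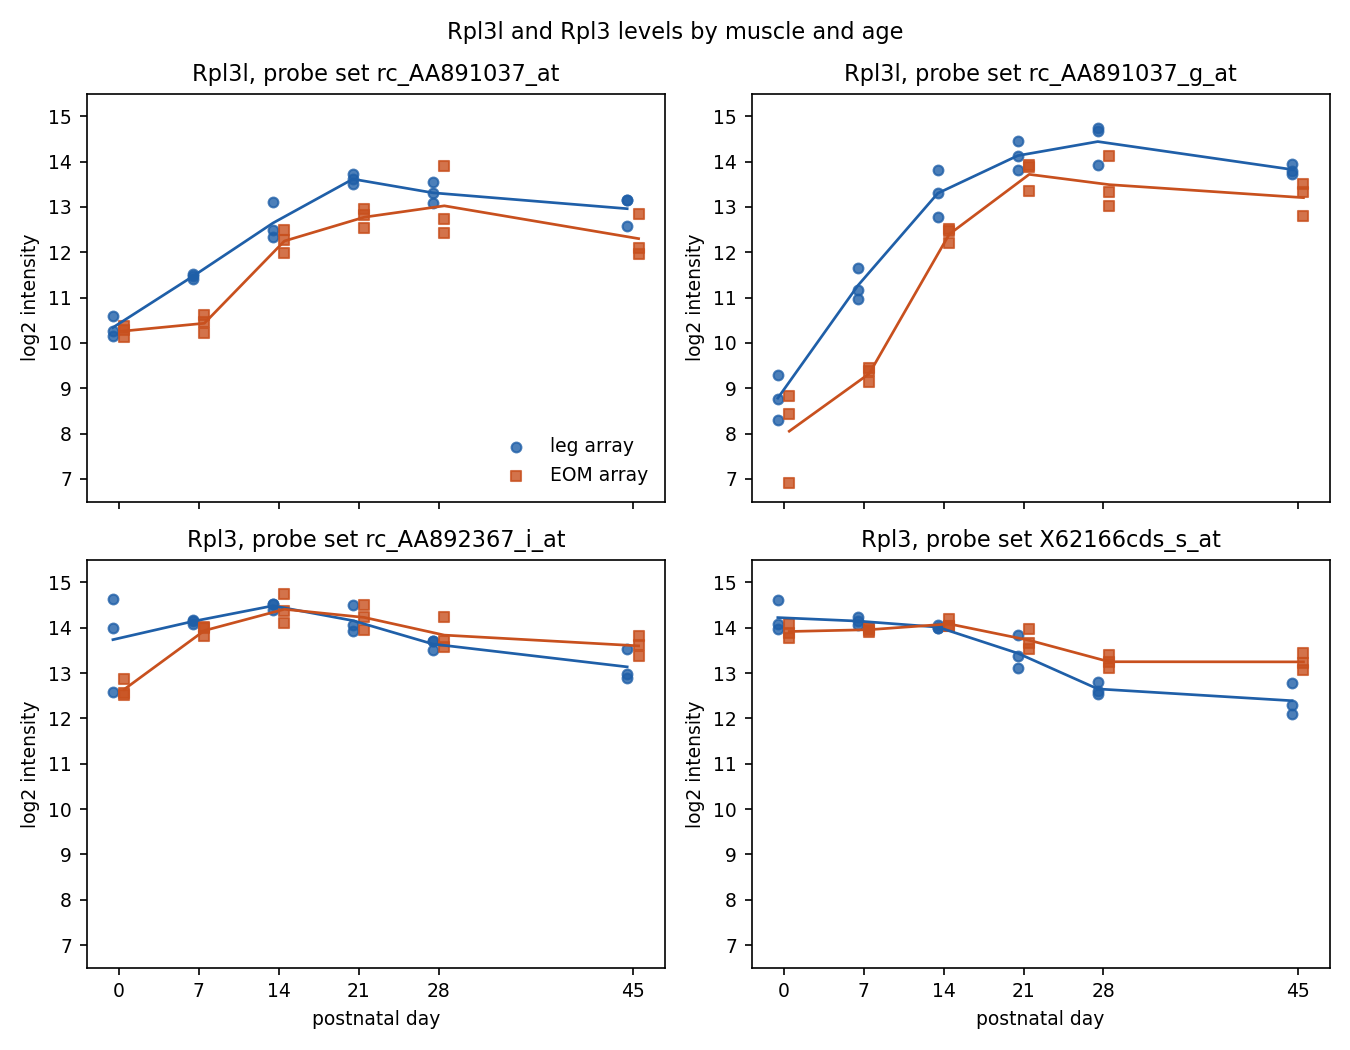
Log2 intensity (vertical axis) of each Rpl3l and Rpl3 probe set against postnatal day (horizontal axis), with 1 point per array and lines through the group means for leg (blue circles) and EOM (orange squares). Rpl3l increases up to day 21 on both of its probe sets with EOM below leg at day 7, while the Rpl3 probe sets have different courses, and rc_AA892367_i_at starts between 5816.9 and 7502.2 in EOM at day 0.

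The probe sets of Rpl3, the general paralog, had different courses and are described in turn. X62166cds_s_at, named for the coding sequence, was high up to day 14 and then lower, more so in leg. In leg it read 25015.2, 16073 and 17470.1 at day 0, 18221, 16992 and 19391.1 at day 7 and 16322.3, 16286.3 and 17060 at day 14. It then read 8848.5, 10615.4 and 14559.9 at day 21, 7196.4, 6243.3 and 5933.7 at day 28 and 5054.9, 4380 and 6992 at day 45. All leg arrays from day 28 on lay below all leg arrays up to day 21. In EOM it read 15053.6, 14081.5 and 17495.4 at day 0, 16339.6, 15437.5 and 15891.2 at day 7 and 16733.2, 16691.3 and 18671.8 at day 14. The later EOM arrays read 11946.2, 12910.7 and 16077.2 at day 21, 8841.6, 10719.9 and 9736.9 at day 28 and 11170, 8543.8 and 9574.7 at day 45. EOM thus levelled off between days 28 and 45, with a step of 0.00 ± 0.19 (-0.16 with arrays scaled to a common median and 0.10 after quantile normalization), above all leg arrays of both ages.

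The other Rpl3 probe set, rc_AA892367_i_at, was highest at day 14 in both muscles. In leg it read 25430.1, 6136.2 and 16420.9 at day 0, 18221, 17492.7 and 18563.3 at day 7 and 23552.6, 21683.4 and 23713.4 at day 14. The second leg array of day 0 stood far below the other 2 on this probe set. The leg arrays then read 15500.6, 16983.1 and 23091.8 at day 21, 11659.8, 13364.3 and 13332.7 at day 28 and 8139, 7640.3 and 11706.4 at day 45. In EOM it read 5983.7, 5816.9 and 7502.2 at day 0, 16446.7, 14406.7 and 16312.4 at day 7 and 27574.7, 17535.1 and 21118.7 at day 14. Later EOM arrays read 19161.7, 15672.1 and 23298.8 at day 21, 12247, 13319.4 and 19241.3 at day 28 and 12627.1, 10585.8 and 14354.3 at day 45. EOM at day 0 was the lowest of the 12 groups here, whereas on X62166cds_s_at the same arrays lay close to the EOM arrays of days 7 and 14.

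Between day 0 and day 45, the Rpl3 probe sets shared a direction in leg and had opposite directions in EOM. On X62166cds_s_at all arrays of day 45 were lower in both muscles, by a log2 difference of -1.83 ± 0.19 in leg (3.57-fold) and -0.67 ± 0.19 in EOM (1.60-fold). A separation downwards occurred in 22.6% of all tested probe sets for leg and 23.2% for EOM. On rc_AA892367_i_at the leg difference was -0.61 ± 0.30 with overlapping arrays, and the EOM difference was 0.96 ± 0.30 with all arrays of day 45 higher. Without the second leg array of day 0, the leg difference of rc_AA892367_i_at was -1.18, and without the first it was -0.16. The change in EOM minus the change in leg was positive on both probe sets, 1.16 ± 0.26 on X62166cds_s_at and 1.56 ± 0.42 on rc_AA892367_i_at. On that probe set the second leg array of day 0, at 6136.2, lay below every leg array of day 45. A leg decrease that separated the arrays was thus present on X62166cds_s_at alone.

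Over the 12 group means the Rpl3l probe sets followed each other with a Pearson r of 0.98, and the Rpl3 probe sets with an r of 0.40. Within leg the Rpl3 probe sets had an r of 0.73 over 6 ages, and within EOM an r of 0.09. X62166cds_s_at had an r of -0.64 with each Rpl3l probe set, whereas rc_AA892367_i_at had an r of 0.33 with rc_AA891037_at and 0.37 with rc_AA891037_g_at. These correlations are descriptions over group means that share the arrays. The GRCr8 annotation lists 6 Rpl3 pseudogenes. Whether their transcripts, or those of related genes, add to either probe set was not tested. Intensity lay above the top 5% of all values (9392.2) on 30 of 36 arrays for rc_AA892367_i_at, 27 for X62166cds_s_at, 18 for rc_AA891037_g_at and 6 for rc_AA891037_at. Whether differences are compressed at such intensities was not tested.

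Ordered by group mean, every Rpl3l group from day 14 on stood above all groups of days 0 and 7. On rc_AA891037_g_at the order from high to low was leg at days 28, 21 and 45, EOM at days 21 and 28, leg at day 14, then EOM at days 45 and 14, leg at day 7, EOM at day 7, leg at day 0 and EOM at day 0. Arrays of neighbouring groups in that order overlapped except at 3 places: EOM day 45 over EOM day 14, EOM day 14 over leg day 7, and leg day 7 over EOM day 7. The gaps there were 0.80, 1.14 and 1.94. On rc_AA891037_at the neighbours stood apart only at the latter 2 places, with gaps of 0.78 and 1.04. For Rpl3 on X62166cds_s_at the order ran from leg day 0, leg day 7, EOM day 14, leg day 14, EOM day 7, EOM day 0, EOM day 21, leg day 21, EOM day 28 and EOM day 45 to leg day 28 and leg day 45. Only EOM day 45 over leg day 28 separated neighbouring groups, with a gap of 0.59. On rc_AA892367_i_at the order was leg day 14, EOM day 14, EOM day 21, leg day 21, leg day 7, EOM day 7, EOM day 28, leg day 0, leg day 28, EOM day 45, leg day 45 and EOM day 0. Neighbours were apart between leg day 7 and EOM day 7, by 0.20, and between leg day 45 and EOM day 0, by 0.49.

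At equal ages, Rpl3l was lower in EOM than in leg in the means of both probe sets at all 6 ages, with separation of the arrays at some. At day 0 the arrays overlapped on all 4 probe sets. At day 7 the EOM arrays lay below the leg arrays on all 4 probe sets, an arrangement found in 9.20% of all tested probe sets. The day 7 differences were -1.94 (3.83-fold) on rc_AA891037_g_at and -1.04 (2.06-fold) on rc_AA891037_at, against -0.19 on X62166cds_s_at and -0.20 on rc_AA892367_i_at. After quantile normalization the difference was 0.01 on X62166cds_s_at and 0 on rc_AA892367_i_at, against -2.01 on rc_AA891037_g_at and -1.13 on rc_AA891037_at. The day 7 gap was therefore much larger for Rpl3l than for Rpl3. At day 14 EOM was lower without overlap on rc_AA891037_g_at (-0.90), as were 10.4% of probe sets, and overlapped with leg on rc_AA891037_at (-0.40, or -0.01, -0.07 and -1.10 between same-numbered arrays). At day 21 it was lower without overlap on rc_AA891037_at (-0.84), as were 7.69%, and overlapped on rc_AA891037_g_at (-0.41, or 0.11, -0.58 and -0.77 between same-numbered arrays). At day 28 both Rpl3l probe sets overlapped, with differences of -0.95 and -0.29. At day 45 rc_AA891037_g_at was lower in EOM without overlap (-0.62), as were 9.07% of probe sets, and rc_AA891037_at overlapped (-0.66).

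Rpl3 at equal ages was higher in EOM than in leg late in the series, most clearly on X62166cds_s_at. There the EOM arrays lay above the leg arrays at day 28 by 0.60 (1.51-fold) and at day 45 by 0.85 (1.81-fold), where 15.6% and 11.1% of all tested probe sets were separated in that direction. At days 14 and 21 its differences were 0.07 and 0.29 with overlap, although EOM was the higher in all 3 pairs of same-numbered arrays at each of these ages. On rc_AA892367_i_at the differences from day 14 to day 45 were -0.08, 0.07, 0.20 and 0.47, all with overlapping arrays, and the second was -0.07 with arrays scaled to a common median. Between same-numbered arrays they were 0.23, -0.31 and -0.17 at day 14 and 0.31, -0.12 and 0.01 at day 21. Its difference at day 0 was -1.10 and also overlapped, since the second leg array of that age read 6136.2, within the EOM range. Without that array the difference was -1.68.

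The exchange was followed within arrays as log2 Rpl3l minus log2 Rpl3, relative to the mean of leg at day 0, for the 4 combinations of probe sets. Each combination was higher at day 45 than at day 0 in both muscles, a rise that the choice of the pair favours. In EOM, Rpl3 on rc_AA892367_i_at was itself higher at day 45 (0.96), so the index there rose without a decrease of Rpl3. Not every step of the index was upward. For rc_AA891037_at minus rc_AA892367_i_at, EOM went from 1.02 ± 0.33 (SD, n = 3) at day 0 to -0.11 ± 0.24 at day 7 without overlap, and from 2.58 ± 0.48 at day 28 to 2.10 ± 0.30 at day 45. For rc_AA891037_g_at minus X62166cds_s_at, leg reached 2.56 ± 0.40 (SD, n = 3) at day 7, 4.73 ± 0.52 at day 14, 6.14 ± 0.39 at day 21, 7.23 ± 0.59 at day 28 and 6.88 ± 0.41 at day 45. EOM started at -0.42 ± 0.92 and reached 0.81 ± 0.16, 3.76 ± 0.25, 5.44 ± 0.54, 5.68 ± 0.54 and 5.40 ± 0.35 at the same ages. EOM therefore lagged at day 7 and stayed below leg at day 45. The day 45 value in leg was 3.22, 4.45, 5.65 or 6.88 by combination, and in EOM 2.10, 2.94, 4.56 or 5.40. EOM lay below leg without overlap at day 7 in all 4 combinations, with mean differences of -0.83, -0.84, -1.73 and -1.74. The same held at day 45 in all 4, with -1.12, -1.51, -1.09 and -1.48. Among single tested probe sets, 9.20% at day 7 and 9.07% at day 45 were lower in EOM without overlap. No such share was computed for differences of 2 probe sets, and nothing is read from these counts. At days 14, 21 and 28 the separation depended on the probe sets used, and at day 0 all combinations overlapped. The combinations share probe sets and are not independent of one another. Since each probe set has its own response to its transcript, the index gives changes only and not the proportion of the paralogs.

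**Figure D2:**
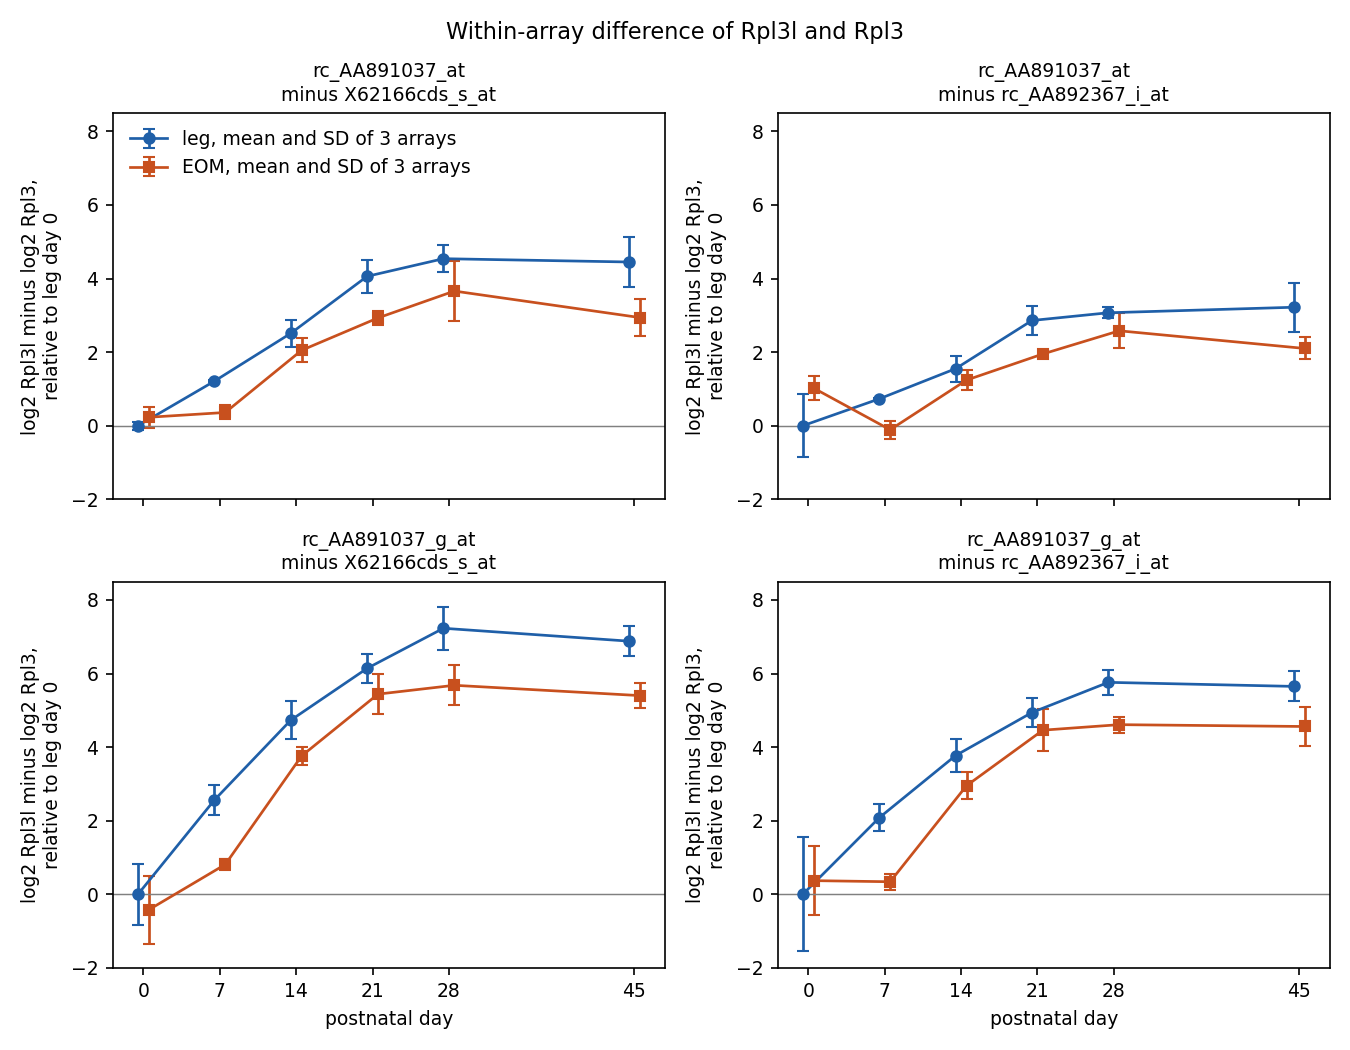
Log2 Rpl3l minus log2 Rpl3 within each array (vertical axis, relative to the mean of leg at day 0) against postnatal day (horizontal axis) for the 4 combinations of probe sets. Points are means and bars SD of 3 arrays for leg (blue circles) and EOM (orange squares), and EOM lies below leg at days 7 and 45 in every panel, with day 45 means of 2.10 to 5.40 in EOM and 3.22 to 6.88 in leg.

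The genes whose 12 group means were most like those of Rpl3l (rc_AA891037_g_at) were ranked by Pearson r over 3887 other genes. They were Fmc1 (r = 0.99), an assembly factor of mitochondrial ATP synthase, Pdp1 (0.988), which activates pyruvate dehydrogenase, Ndufs7 (0.986), a subunit of respiratory complex I, Vamp5 (0.983), a vesicle membrane protein of muscle, and Wipf3 (0.981), an actin regulator. All 5 had positive differences from day 0 to day 45 in both muscles. Vamp5 differed by 3.39 ± 0.18 in leg and 2.91 ± 0.18 in EOM, and Fmc1 by 1.75 ± 0.16 and 1.85 ± 0.16. The most opposite genes were Nap1l1 (r = -0.99), a histone chaperone, Chka (-0.98), choline kinase, Pex5 (-0.979), a peroxisomal import receptor, Phf20 (-0.977) and Pard3 (-0.972), a cell polarity protein. Nap1l1 had log2 differences of -2.03 ± 0.25 in leg and -2.52 ± 0.25 in EOM. Among genes followed by name, Myh4, the adult fast myosin heavy chain IIb, had an r of 0.962 with Rpl3l, and Eef1a2, the muscle form of elongation factor 1 alpha, an r of 0.925. Chrne, the adult subunit of the acetylcholine receptor, had an r of 0.695 and its developmental counterpart Chrng an r of -0.698. Myh8, the perinatal myosin, had an r of -0.581 and the embryonic Myh3 an r of -0.274. Not all adult isoforms followed Rpl3l: Acta1, the adult skeletal actin, had an r of -0.062, and Actc1, the developmental actin, an r of 0.442. The arrays of these 2 genes varied widely, with an SE of 0.99 for Acta1 and 1.85 for Actc1 on the change from day 0 to day 45 in each muscle. Eef1a1 had an r of 0.104.

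The genes most like Rpl3 differed between its probe sets. For rc_AA892367_i_at they were Cav1 (r = 0.918), a caveolar coat protein, Tuba1b (0.871), an alpha tubulin, Rabggtb (0.852), Pdlim1 (0.832) and Actg1 (0.818), cytoplasmic actin. For X62166cds_s_at, ranked after its values had been seen, they were Col5a2 (0.971), Postn (0.963), Gpx7 (0.956), Anxa5 (0.948) and Zeb1 (0.947). Col5a2 and Postn are products of the extracellular matrix and Zeb1 is a transcription factor of mesenchymal cells. Postn differed by -3.39 ± 0.21 in leg and -1.95 ± 0.21 in EOM. None of the 10 genes was shared between the lists.

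Of the other proteins of the cytosolic ribosome, 36 of a list of 78 genes were on the array, and all 36 were tested with limma, the test across all probe sets with Benjamini-Hochberg adjustment at a threshold of 0.05. From day 0 to day 45 in leg, 3 rose and 11 fell, beside 14.4% of all tested probe sets that rose and 18.5% that fell (32.8% in all). The balance in leg rested on single arrays: 11 rose and 9 fell without the first array of day 0, 0 and 9 without the second, and 1 and 8 without the third. With the compared groups fitted alone, 0 rose and 6 fell. In EOM 10 rose and 8 fell, beside 12.9% and 18.4% (31.3% in all), and 6 and 10 without the third array of day 45. With probe sets in the top 5% of values left out, 6 genes of the list remained, of which 0 rose and 5 fell in each muscle. The median change of the list was 0.08 in leg and 0.03 in EOM, beside 0.06 and -0.04 over all tested probe sets. In EOM the split was 10 higher and 12 lower after quantile normalization. Scaling the arrays to a common median moved the median of all tested probe sets from -0.04 to 0.07 in EOM and from 0.05 to -0.07 for EOM against leg at day 0. The list had no common direction, with differences from -1.31 to 3.07 in leg and from -2.03 to 4.51 in EOM.

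Of the 11 genes that fell in leg, 9 encode proteins of the large subunit, as do all 3 that rose and 25 of the 36 tested. Rpl30 fell by 1.31 ± 0.40 (limma adjusted p = 0.0123), Rpl17 by 1.21 ± 0.37 (adjusted p = 0.0116), Rpl5 by 1.16 ± 0.45 (adjusted p = 0.0453) and Rpl14 by 0.95 ± 0.19 (adjusted p = 0.000194). The genes that rose there were Rpl27a (3.07 ± 0.89, adjusted p = 0.00807), Rplp0, the stalk protein (1.93 ± 0.58, adjusted p = 0.00963), and Rpl31 (0.77 ± 0.30, adjusted p = 0.0441). In EOM the genes with the largest increases were Rplp0 (4.51 ± 0.58, adjusted p = 3.57e-07) and Rps3 (2.40 ± 0.37, adjusted p = 6.3e-06). The largest decreases there were in Rps24 (-2.03 ± 0.34, adjusted p = 2.59e-05) and Rpl30 (-1.70 ± 0.40, adjusted p = 0.00151). The change differed between the muscles for 1 of 36 genes, Rps3, by 1.83 ± 0.52 (adjusted p = 0.0413), against 3.70% of all tested probe sets. That count was 0 under several alternatives, given in the closing section.

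EOM at day 0 was low in several ribosomal protein genes, as it was in Rpl3 on rc_AA892367_i_at. At that age 5 of 36 genes were lower in EOM than in leg, beside 2.40% of all tested probe sets (6.32% in either direction). That count was 0 with the compared groups fitted alone and 0 without probe sets in the top 5%, with 4 and 0 genes at an unadjusted p under 0.05. It was 3 without the first leg array, or without the first or second EOM array, of day 0. The 5 were Rplp0 (-2.90 ± 0.58), Rps3 (-2.12 ± 0.37), Rpl7a (-1.34 ± 0.26), Rps15 (-0.93 ± 0.27) and Rps9 (-0.92 ± 0.24), with limma adjusted p between 0.000181 and 0.0356. The arrays of EOM and leg overlapped for Rps3, Rps9 and Rps15. The median over the 36 genes was -0.30, beside 0.05 over all tested probe sets. At day 45, 2 of 36 were lower in EOM, Rpl36 (-0.50 ± 0.16, adjusted p = 0.0444) and Rps24 (-1.21 ± 0.34, adjusted p = 0.02), beside 3.69% of all tested probe sets (10.6% in either direction). The second leg array of day 0, low in Rpl3 on rc_AA892367_i_at, was the lowest of its group for 23 of these 36 genes and for 30.5% of all tested probe sets. The second array was the lowest for more than 50% of the list in 7 of 12 groups.

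**Figure D3:**
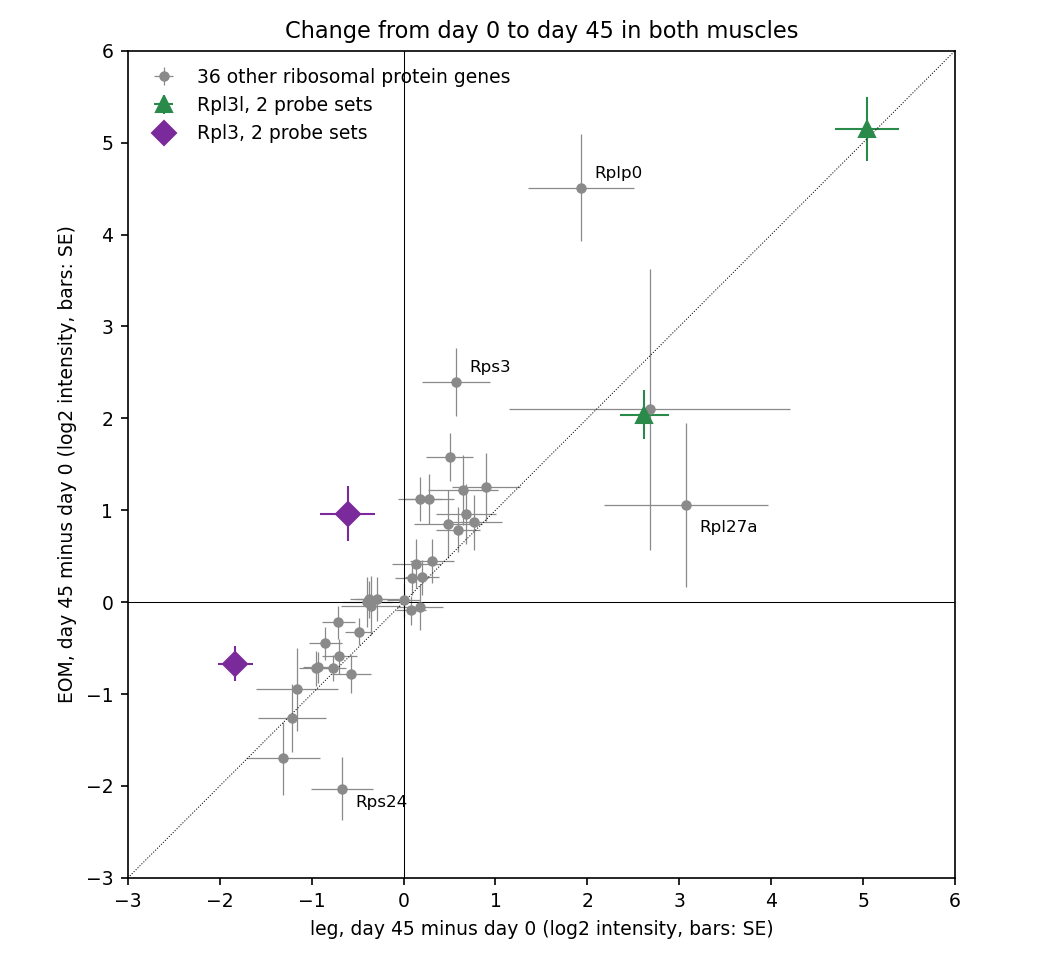
Change from day 0 to day 45 in leg (horizontal axis) and EOM (vertical axis), both in log2 intensity with SE bars, for 36 other ribosomal protein genes (grey circles), the Rpl3l probe sets (green triangles) and the Rpl3 probe sets (purple diamonds); the dotted line marks equal change. The Rpl3l probe set at 5.04 and 5.15 lies beyond all other points, and both Rpl3 probe sets lie above the dotted line.

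Other ribosomal paralogs could hardly be followed, since 1 of a list of 7, Rps27l, was on the array. Its differences were 0.05 ± 0.18 in leg and -0.39 ± 0.18 in EOM, and it did not pass the test in either (limma adjusted p = 0.869 and 0.112). Of the proteins of the mitochondrial ribosome, 6 of 42 were tested, and Mrpl40 and Mrpl50 rose in both muscles. These 2 of 6, or 33.3%, stand beside 14.4% of all tested probe sets that rose in leg and 12.9% in EOM. Mrpl40 rose by 0.69 ± 0.23 in leg and 0.91 ± 0.23 in EOM.

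Genes of ribosome assembly, which make and process ribosomal RNA or build the subunits, mostly fell in both muscles over the ages at which Rpl3l became high. Of 10 tested genes of this list, 7 fell in leg and 9 in EOM, and 1 rose in EOM (Polr1b, a subunit of RNA polymerase I, by 0.80 ± 0.28, limma adjusted p = 0.0293). Over all tested probe sets 18.5% fell in leg and 18.4% in EOM. Ncl, nucleolin, fell by 1.54 ± 0.21 in leg and 1.85 ± 0.21 in EOM. Dkc1, the pseudouridine synthase dyskerin, fell by 1.12 ± 0.26 and 1.88 ± 0.26, and Ubtf, a transcription factor of ribosomal RNA genes, by 2.08 ± 0.61 and 1.76 ± 0.61. The median change was -0.99 in leg and -1.58 in EOM.

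Among 22 translation factors, 4 rose and 4 fell in leg, or 36.4%, near the 32.8% of all tested probe sets that changed there. In EOM 2 rose and 9 fell, or 50%, beside 31.3%. With arrays scaled to a common median 4 rose and 2 fell in leg and 2 rose and 5 fell in EOM, and after quantile normalization 3 rose and 7 fell in EOM. Eef1a2 rose by 1.83 ± 0.29 in leg (limma adjusted p = 9.81e-06) and by 2.14 ± 0.29 in EOM (adjusted p = 9.44e-07). Its general counterpart Eef1a1 had differences of -0.31 ± 0.22 and 0.29 ± 0.22 and did not pass the test in either muscle (adjusted p = 0.305 and 0.348). Eef2, the translocation factor, rose by 2.47 ± 0.82 in leg and 2.15 ± 0.82 in EOM with a large error. Eif3m fell by 1.41 ± 0.28 and 1.02 ± 0.28, and Eif4h by 1.25 ± 0.25 and 0.97 ± 0.25. Eef2k, the kinase that inhibits Eef2, fell in EOM by 0.93 ± 0.24 (adjusted p = 0.00306) and had a difference of 0.34 ± 0.24 in leg (adjusted p = 0.289), and the changes differed by -1.27 ± 0.34 (adjusted p = 0.0281). It was the 1 of 22 factors whose change differed between the muscles. That count was 0 with arrays scaled to a common median and 1 after quantile normalization.

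Other pairs of a general or developmental and a muscle or adult isoform were set beside Rpl3 and Rpl3l. Of 19 pairs tested from a list of 24, the muscle member rose in 9 in leg and 10 in EOM, and the general member fell in 10 and 5. Over all tested probe sets 14.4% rose in leg and 12.9% in EOM, and 18.5% and 18.4% fell. Both occurred together in 4 pairs in leg, Chrng and Chrne, Myh3 and Myh4, Pgam1 and Pgam2, and Hk1 and Hk2, and in 2 pairs in EOM, Myl4 and Myl1, and Pygb and Pygm. With the compared groups fitted alone these counts were 3 and 0. In leg the count was 2 without the first array of day 0 or the second of day 45. In leg Myh3, the embryonic myosin, fell by 3.05 ± 0.39 while Myh4 rose by 4.54 ± 0.37. In EOM Myh4 rose by 5.86 ± 0.37 (limma adjusted p = 3.34e-13) and Myh3 had a difference of 0.33 ± 0.39 (adjusted p = 0.567). The median over the pairs of the muscle change minus the general change was 1.31 in leg and 1.15 in EOM. For the 4 combinations of Rpl3l and Rpl3 probe sets that difference was 3.22 to 6.88 in leg and 1.08, 2.71, 4.19 and 5.82 in EOM. Elongation factor 1 alpha had a difference of 2.13 in leg and 1.85 in EOM. For Myl4 and Myl1 it was 4.86 and 4.79. Across the 19 pairs it ran from -4.47 (Actc1 and Acta1) to 7.59 (Myh3 and Myh4) in leg. In EOM it ran from -3.72 (Atp2a2 and Atp2a1) to 5.53 (Myh3 and Myh4). Both low ends had large errors. Actc1 had an SE of 1.85 in leg, and Atp2a1 did not pass the test in EOM (-3.05 ± 2.07, limma adjusted p = 0.286).

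**Figure D4:**
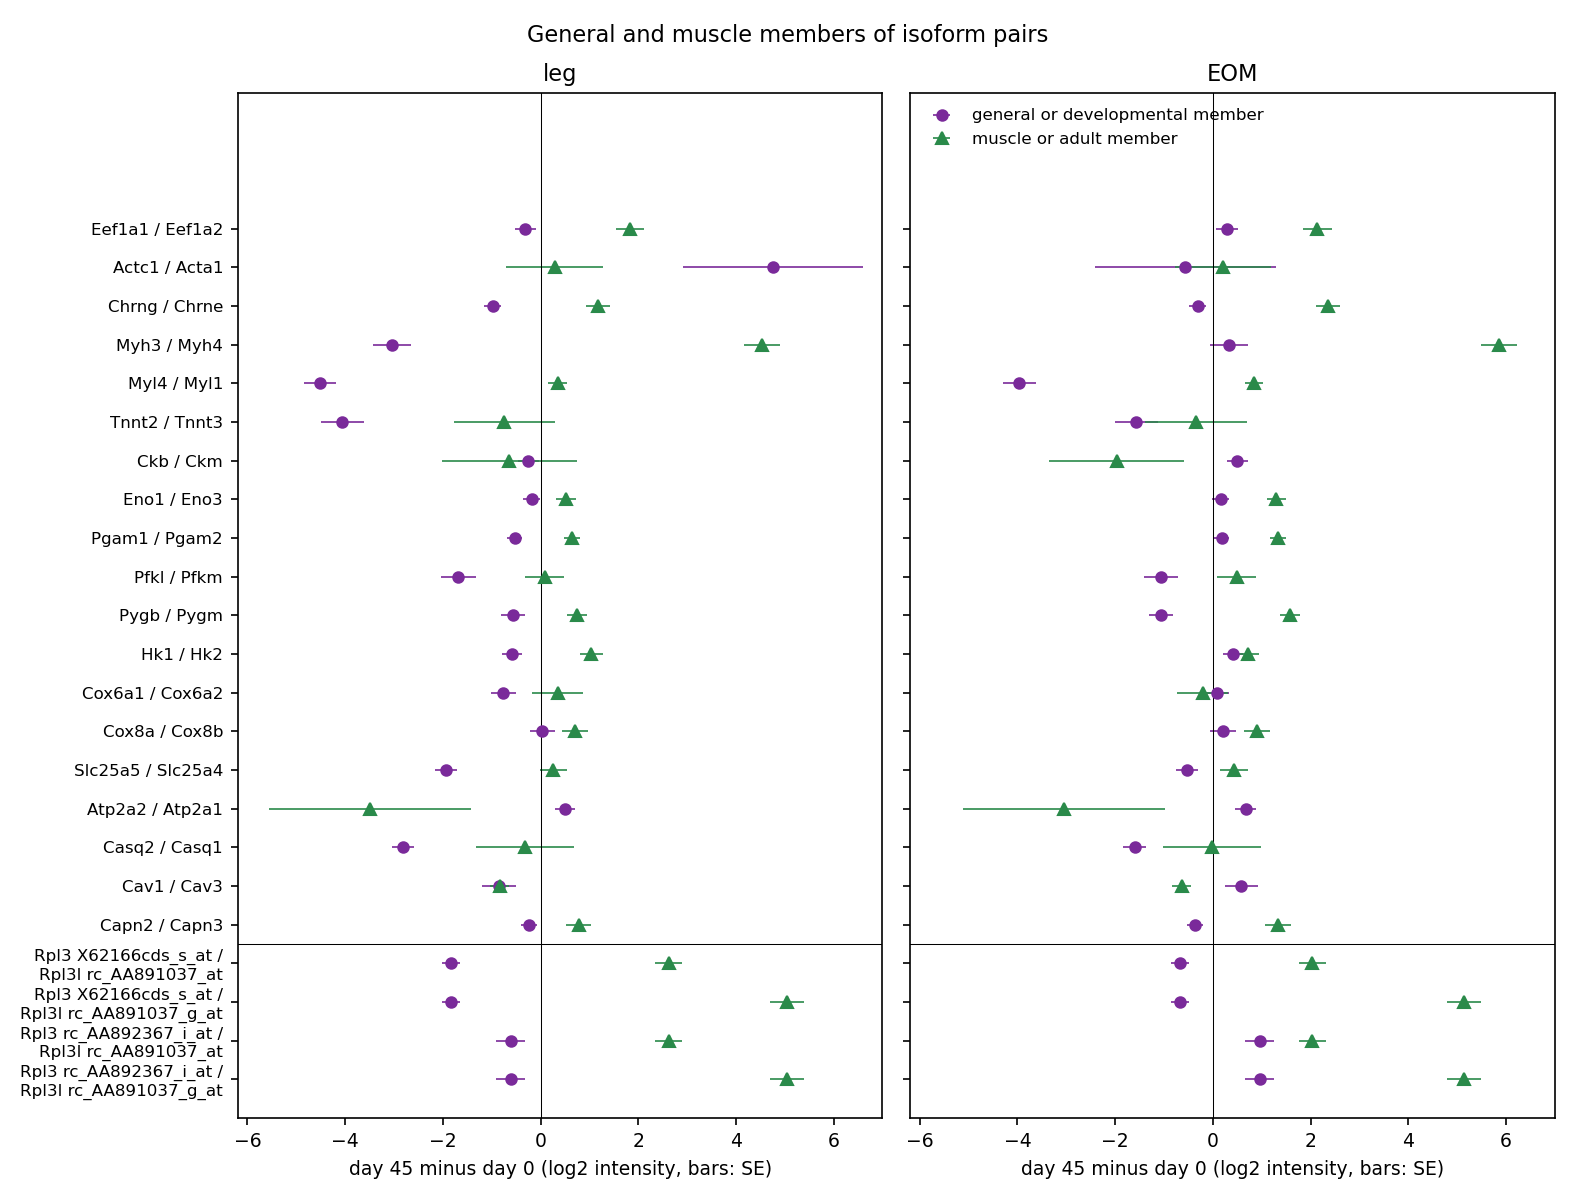
Change from day 0 to day 45 (horizontal axis, log2 intensity, bars SE) of the general or developmental member (purple circles) and the muscle or adult member (green triangles) of 19 isoform pairs and of the 4 combinations of Rpl3 and Rpl3l probe sets below the line, in leg (left) and EOM (right). Rpl3l lies right of zero in all combinations, and the EOM value of Rpl3 is -0.67 on X62166cds_s_at and 0.96 on rc_AA892367_i_at.

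Neighbouring genes on the chromosome were followed where the array held them. Rpl3l lies beside Ndufb10, a subunit of respiratory complex I, which rose by 0.75 ± 0.20 in leg (limma adjusted p = 0.00366) and 1.3 ± 0.20 in EOM (adjusted p = 5.88e-06). Rpl3 lies between Pdgfb and Syngr1, and neither passed the test in leg (adjusted p = 0.452 and 0.735) or in EOM (adjusted p = 0.918 and 0.317).

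Markers of dividing cells and of several other cell types moved with the same ages. Of 16 proliferation genes, 13 fell in each muscle, beside 18.5% of all tested probe sets in leg and 18.4% in EOM, and their summed intensity ranged from 38720 to 46030 in leg at day 0 and 13900 to 16150 at day 45. In EOM it ranged from 59620 to 64930 at day 0 and 15250 to 17030 at day 45. Of 18 fibroblast and matrix genes, 11 fell and 1 rose in leg, and 8 fell and 1 rose in EOM. At day 45, 7 of these 18 were higher in EOM than in leg, beside 6.89% of all tested probe sets, the age at which Rpl3 on X62166cds_s_at was also higher in EOM. Their summed intensity at day 45 was 119000 to 151700 in leg and 143400 to 170400 in EOM. All 11 gland and epithelium genes were higher in EOM than in leg at day 0, beside 3.93% of all tested probe sets, with sums of 31750 to 44790 against 3577 to 6132 in leg, and the sums in EOM at day 45 were 3276 to 6584. Of 6 adipocyte genes, 5 rose and 1 fell in EOM and 1 rose in leg. Over all tested probe sets 12.9% rose and 18.4% fell in EOM, and 14.4% rose and 18.5% fell in leg. At day 0, 3 were lower in EOM than in leg, beside 2.40% of all tested probe sets. Adipocyte sums at day 0 were 14740 to 18120 in EOM and 23010 to 30840 in leg. Of 6 erythroid genes, 2 rose and 1 fell in EOM, and 1 fell in leg. In EOM the globin gene Hbb rose by 3.68 ± 0.79 (12.8-fold, limma adjusted p = 0.000531), while Alas2 fell by 0.94 ± 0.31 (adjusted p = 0.0177). Erythroid sums in EOM ran from 8635 to 11130 at day 0 and from 11430 to 70750 at day 45. In leg the erythroid sums were 9895 to 55270 at day 0 and 30970 to 41380 at day 45. Of 14 genes of Schwann cells and axons, 4 fell in leg, and 5 were higher in EOM than in leg at day 45, with sums of 30490 to 46840 against 17750 to 22130. Of 7 genes of endothelium and smooth muscle, 3 were higher in EOM at day 45, with sums of 14100 to 19530 against 14650 to 15600 in leg. Of 11 leukocyte genes, 1 rose and 2 fell in leg and 2 rose and 1 fell in EOM. This was 27.3% of the list in each muscle, beside 32.8% of all tested probe sets in leg and 31.3% in EOM. No marker of these lists was listed at 0 in a whole group, but some lay at the floor on all arrays of a group. Among muscle markers this was 1, Ckm, at days 21 and 28 in both muscles. Among leukocyte markers it was 1 or 2 in every group except EOM at day 21. The proliferation, erythroid, gland, Schwann cell and adipocyte lists also had 1 or 2 in some groups. Summed intensity of 17 muscle markers was 166500 to 238200 in leg and 130200 to 150500 in EOM at day 0, and 237700 to 317000 and 174400 to 371300 at day 45. The part of these markers in the levels of Rpl3 and Rpl3l was not tested.

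Across the series, array medians ranged from 418.7 to 652.2, and arrays of a group correlated with an r of 0.909 to 0.968. Of 8799 probe sets, 6672 passed the filter. The floor held 10% to 23.5% of each array's values, and no Rpl3 or Rpl3l value reached down to it. The number of arrays limits the precision.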

How the data were processed

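Total RNA of EOM and leg muscle was measured on 36 arrays, and groups, ages and replicate numbers were taken from the labels. The authors deposited 1 linear intensity per probe set and array, with 2% trimmed array means between 1501.1 and 1502.3. The software behind these intensities is not given in the sources. No further scaling was applied. Values under the 20th percentile of the whole table (100.9) were raised to it before taking log2. Control probe sets (59) were dropped, and testing required an intensity over 320.4 on at least 3 arrays. Symbols came from a platform annotation of 2016 (7006 probe sets with 1 symbol, 308 with several, 1426 with none).

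One limma model (version 3.58.1, R 4.3.3) over 12 groups, with a trended prior and 24 residual degrees of freedom, gave all differences and SE, and p-values were adjusted over all tested probe sets. The model was tested on simulated data. Same-numbered EOM and leg arrays deviated together (every r over 0.1, up to 0.37) at days 7, 14 and 21, which no label explains, so differences within pairs are added there where arrays overlapped. At the other ages, and between days 0 and 45 of a muscle, not every r was over 0.1 (r between -0.10 and 0.26 in all). Single pairs were, with 0.26 for the third arrays at day 28. Members and lists were chosen with earlier results of these data known. Every Rpl3 and Rpl3l probe set is reported without a test. Other genes are represented by their tested probe set of highest mean. The genes named are the 5 most alike (and for Rpl3l most opposite) over the group means, the named pairs and neighbours, and up to 4 list genes with the largest changes past the test in each direction, or all where a count was 5 or fewer. The alternatives tried were other scalings, floors, filters, probe sets and samples.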

Additional observations from a re-analysis of the deposited data

Results flagged for a closer look

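Among the 75 genes followed beside Rpl3 and Rpl3l, 5 changed differently in EOM and leg between days 0 and 45 by the limma interaction term (EOM change minus leg change, 3 arrays per group), beside 3.70% of all tested probe sets. Perinatal myosin Myh8 differed by 7.12 ± 0.40 (adjusted p = 1.63e-13): it fell by 7.19 ± 0.29 in leg and had a difference of -0.07 ± 0.29 in EOM. Embryonic myosin Myh3 differed by 3.38 ± 0.55 (adjusted p = 0.00021), with differences of -3.05 ± 0.39 in leg and 0.33 ± 0.39 in EOM. The ribosomal protein gene Rps3 differed by 1.83 ± 0.52 (adjusted p = 0.0413), with differences of 0.57 ± 0.37 and 2.40 ± 0.37. The acetylcholine receptor subunit gene Chrne differed by 1.18 ± 0.34 (adjusted p = 0.0454), with differences of 1.18 ± 0.24 and 2.36 ± 0.24. Eef2k, the kinase of elongation factor 2, differed by -1.27 ± 0.34 (adjusted p = 0.0281), with differences of 0.34 ± 0.24 and -0.93 ± 0.24. With arrays scaled to a common median, neither Eef2k nor Rps3 passed this test.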

How the results depend on the processing

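Of 195 alternative values over 22 results, not counting omitted arrays, 155 were counted as close to their main value and 40 as moved. Some alternatives could not move an Rpl3 or Rpl3l value, so the 155 do not measure how stable these values were. A lower floor could not, since no such value lay at the floor, nor could the replicate block described below. Close did not require the same sign: a turn from 0.37 to -0.42, given below, was counted as close. The sign of an untested Rpl3 or Rpl3l value turned in 6 of the 195, 5 of these by the choice of probe set. It also turned in 5 values with 1 array left out. Among these was -0.32 for Rpl3l minus Rpl3 in EOM against leg at day 0 (without leg day 0 replicate 1). Another was -0.46 for the EOM change minus the leg change of Rpl3l (without EOM day 0 replicate 2). With Rpl3 by X62166cds_s_at the differences were -1.83 (leg, day 45 minus day 0), -0.67 (EOM), -0.31 (EOM minus leg, day 0) and 0.85 (day 45), and the mean of both Rpl3 probe sets gave 0.14 in EOM. Rpl3l minus Rpl3 was then 6.88 in leg and 5.82 in EOM, or 5.01 in EOM with that mean. Probe set choices for Rpl3l were added after seeing the data: rc_AA891037_at gave 2.62 (leg), 2.04 (EOM) and -0.58 (EOM change minus leg change), and the mean of both gave 3.83, 3.59 and -0.24. For rc_AA891037_g_at the EOM change minus the leg change was -0.04 with log2(intensity + 64) in place of the floor. Rpl3l minus Rpl3 in EOM against leg at day 0 turned from 0.37 to -0.42 with X62166cds_s_at and -0.02 with the mean of both Rpl3 probe sets. From day 0 to day 45, Rpl3l minus Rpl3 was 3.22 in leg and 1.08 in EOM with rc_AA891037_at, 4.44 and 2.63 with the mean of both Rpl3l probe sets, and with the other probe set of both genes 4.45 and 2.71. Of the ribosomal list, fits of the compared groups alone gave 6 (leg), 11 (EOM), 0 (day 0), 0 (day 45) and 0 (EOM change minus leg change), and without probe sets in the top 5% of values, also added after seeing the data, 6 genes were left, with 5, 5, 0, 1 and 0. The limma count of genes whose change differed between the muscles was 0 with a common median, no filter, no trend or mean probe sets and 4 with quantile normalization. At an unadjusted p under 0.05, counts of 0 stood beside 0 to 6 genes. At day 45 the count was 1 with a common median, quantile normalization or no trend. Pairs exchanged were 7 in leg and 4 in EOM with mean probe sets, and 0 in EOM with the compared groups alone.

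Leaving out 1 array at a time gave 9 to 20 ribosomal genes in leg, 3 to 7 for EOM against leg at day 0, 1 to 2 at day 45, 0 to 3 for changes that differed between the muscles, and 2 to 4 exchanged pairs in leg. The count of differing changes was 0 without leg day 0 replicate 1, EOM day 0 replicate 1 or 2, EOM day 45 replicate 2 or any leg array of day 45. For Rpl3 the change in EOM minus that in leg was 1.12 to 2.14, and its leg change was -1.18 to -0.16. A replicate block gave 16 ribosomal genes in leg (5 higher, 11 lower) and 21 in EOM (10 and 11). It cannot change the Rpl3 and Rpl3l differences, since every group holds the same replicate numbers.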
